A study of Mus musculus with 10 samples.

Results

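The T cell and cytotoxic genes described here are 10 of the 55453 gene symbols in the count table of mouse aortae, picked out of the table by symbol. They are the CD3 chain genes *Cd3d*, *Cd3e* and *Cd3g*, the zeta chain gene *Cd247*, the receptor beta constant gene *Trbc2*, the coreceptor genes *Cd4* and *Cd8a*, the kinase gene *Lck*, and the cytotoxic granule genes *Gzmk* and *Nkg7*. RNA sequencing was performed on poly(A) RNA of whole aortae from 10 male C57BL/6 mice, 5 of them young (14.5 weeks) and 5 old (92.5 weeks by the sample labels), with 1 library per mouse. The vessels were flushed with saline and freed of surrounding fat, and the labels give no treatment and no transgene for either group. The study asked which genes differ between young and old aortae, and for these 10 genes the question is whether T cell transcripts were more abundant in old vessels.

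A T cell recognizes antigen through a receptor of paired alpha and beta chains, or gamma and delta chains, which have no signaling tail of their own. The CD3 gamma, delta and epsilon chains and the zeta chain carry the signal into the cell, where the kinase Lck, held near the receptor by the coreceptors CD4 or CD8, starts the phosphorylation cascade. Cytotoxic T cells and natural killer cells store granzymes and the membrane protein NKG7 in granules, and in a healthy artery T cells are a minor population that sits mainly in the adventitia.

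Between 19640401 and 22886153 reads per library were counted on genes, and no pair of libraries within a group matched within sampling noise. The tissue label held: the sum of 5 smooth muscle markers ranged from 716200 to 924200 normalized counts, whereas the sum of all 10 T cell and cytotoxic genes ranged from 19.5 to 240.5. Of the genes with at least 1 count, 14614 passed the low-count filter of edgeR and were tested, and 11.5% of them were called at a Benjamini-Hochberg adjusted p below 0.05 by the quasi-likelihood F test, 6.48% as higher and 4.99% as lower in old aortae. A pair of libraries stood apart in markers of other cells. Young replicate 1 held the highest adipocyte marker sum (8043 normalized counts against 1224 to 4139 in the other 9 libraries) and the highest B cell marker sum of the young group (134 against 17.1 to 76.8). Old replicate 3 held the highest B cell marker sum of all (507 against 46.0 to 103.5 in the other old libraries) and the highest macrophage marker sum (18580 against 9048 to 11240). Many of the results that rest on either library are given with and without it, and the part of these cells in the results was not tested. In RNA of whole tissue, more T cells and more T cell RNA per cell cannot be told apart.

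Only *Cd3g*, *Cd4*, *Lck* and *Cd247* passed the low-count filter, and 2 of these 4, *Cd3g* and *Cd4*, were called, both as higher in old aortae, against 6.48% of all tested genes called in that direction. *Cd3g* reached the required count in the 5 old libraries alone, and *Cd4* in these and 1 young library, so that a difference was built into their passing, and the share of called genes among the 4 is no result. DESeq2 called 3 of the 10 genes, *Cd3e* in addition, all as higher, against 7.24% of its tested genes in that direction. In the same 3 genes every old mouse lay above every young mouse, which was so in 5.37% of the genes that passed the filter and in 0.605% of those that did not. The other 6 genes had between 4 and 78 reads in all libraries together and are described by their counts. For these, an exact two-sided permutation test compared the mean normalized count (count over DESeq2 size factor), with an unadjusted p that cannot fall below 0.0079 in 5 against 5 mice.

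**Figure D1:**
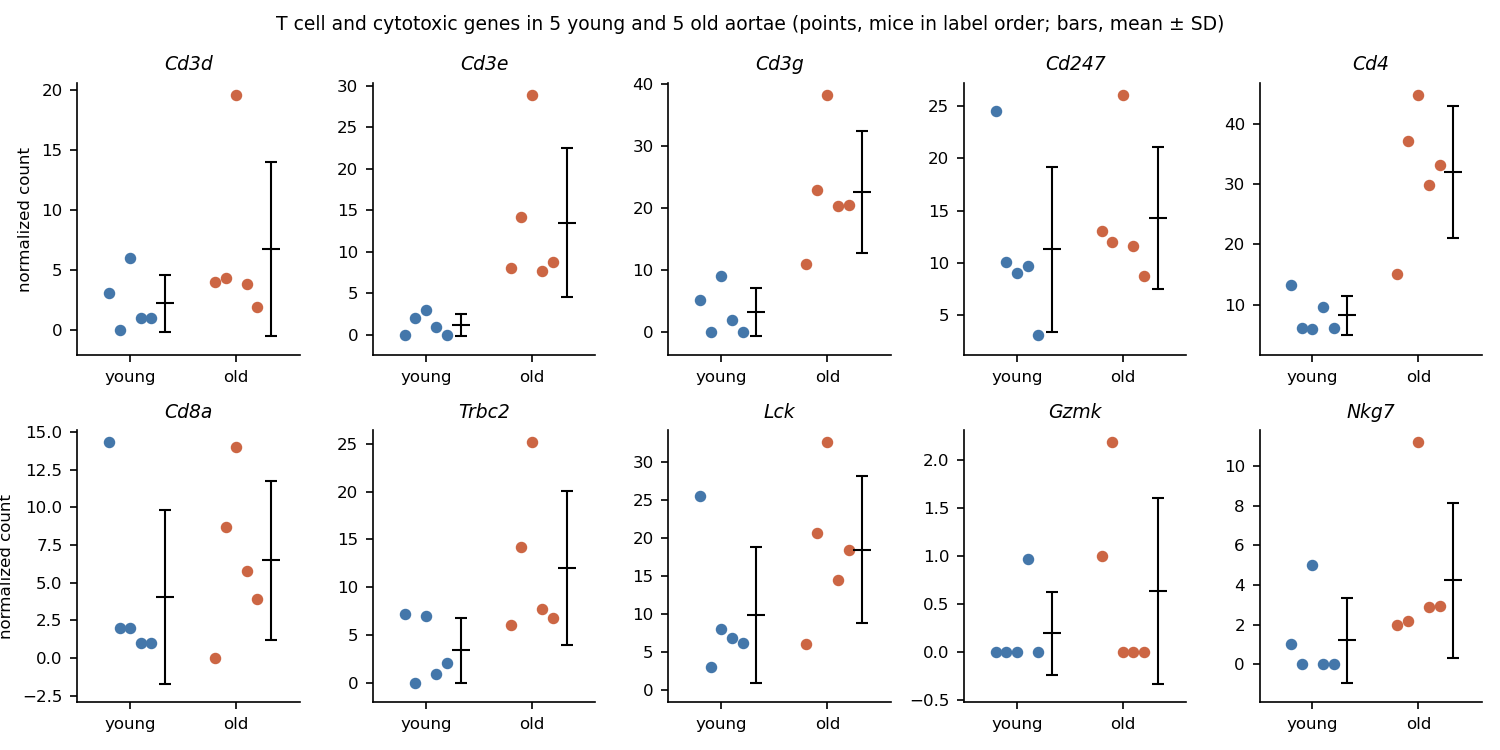
Normalized count (vertical axis, own scale in each panel) of each of the 10 genes in 5 young (blue) and 5 old (orange) aortae, with mice in the order of their replicate numbers and black bars for the mean ± SD. The groups did not overlap in *Cd3e*, *Cd3g* and *Cd4*, whereas a single young or old mouse stood high in *Cd8a*, *Cd247*, *Lck*, *Cd3d* and *Nkg7*.

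The CD3 chain genes, *Cd3g*, *Cd3d* and *Cd3e*, lie side by side on chromosome 9 of GRCm38. *Cd3g* (44969572 to 44980431, minus strand) and *Cd3d* (44981786 to 44987339, plus strand) are read away from each other, with starts 1355 bp apart, and *Cd3e* (44998740 to 45009627, minus strand) starts 27841 bp from *Cd3d*. Their upstream sequences are shown because the genes are neighbors with the same role whose counts were low in young aortae. Each line below gives 220 bases of the gene's own strand that end 30 bases before the start site of RefSeq (GRCm38.p6). Capitals mark matches, on either strand, to 4 short motifs of factor families that act in T cells: TGTGGT for RUNX factors, AGGAAG for ETS factors, CACCTG for E-box binding factors, and AGATAA for GATA factors, with no overlap between matches.
Cd3g, chr9:44980462-44980681, minus strand: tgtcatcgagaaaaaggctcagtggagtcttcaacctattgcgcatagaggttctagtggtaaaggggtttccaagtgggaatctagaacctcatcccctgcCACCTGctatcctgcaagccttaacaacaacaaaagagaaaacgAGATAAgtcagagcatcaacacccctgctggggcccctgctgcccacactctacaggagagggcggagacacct
Cd3d, chr9:44981536-44981755, plus strand: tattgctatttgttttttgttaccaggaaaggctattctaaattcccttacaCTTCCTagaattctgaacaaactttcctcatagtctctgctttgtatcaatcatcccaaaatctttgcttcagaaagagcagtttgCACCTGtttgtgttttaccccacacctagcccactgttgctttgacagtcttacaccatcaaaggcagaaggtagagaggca
Cd3e, chr9:45009642-45009861, minus strand: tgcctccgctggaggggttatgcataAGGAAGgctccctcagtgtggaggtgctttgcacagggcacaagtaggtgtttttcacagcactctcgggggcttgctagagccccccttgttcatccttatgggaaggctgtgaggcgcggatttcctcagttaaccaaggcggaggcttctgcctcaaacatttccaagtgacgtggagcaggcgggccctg
The *Cd3g* window held 1 E-box and 1 GATA match, the *Cd3d* window 1 ETS and 1 E-box match, and the *Cd3e* window 1 ETS match. Of 32851 promoter windows of the same length, 26.1% held the ETS letters, 15.5% the E-box letters, 12.7% the RUNX letters and 9.04% the GATA letters. Windows for 8 of the 10 genes were in the table, and these matches describe letters, not binding.

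*Cd3g*, which encodes the gamma chain of CD3, had 5, 0, 9, 2 and 0 reads in young replicates 1 to 5 and 11, 21, 41, 21 and 21 reads in old replicates 1 to 5. The normalized count averaged 3.20 ± 3.84 (SD, n = 5) in the young group and 22.6 ± 9.86 in the old group. Every old mouse was above every young mouse, although old replicate 1 exceeded young replicate 3 by few reads. The log2 fold change was 2.78 with an SE of 0.62 (edgeR adjusted p = 0.0121), and without both libraries that stood apart it was 2.71 (adjusted p = 0.0261). *Cd3e*, which encodes the epsilon chain shared by all CD3 dimers, had 0, 2, 3, 1 and 0 reads in young and 8, 13, 31, 8 and 9 reads in old mice. Again no old mouse fell within the young range. The normalized count averaged 1.19 ± 1.30 in the young group and 13.5 ± 9.00 in the old group (exact permutation p = 0.0079, the smallest p that these group sizes can give). Summed over mice, 69 reads in old against 6 in young aortae gave a depth-adjusted ratio of 11.6, with a 95% interval of 5.07 to 32.7 that covers counting error only. When every gene with a count was tested, edgeR gave *Cd3e* a log2 fold change of 3.37 (adjusted p = 0.000375) and DESeq2 gave 3.49 (adjusted p = 0.000342). In such unfiltered testing edgeR called 0.567% of the genes under the filter as higher in old aortae. Over the omission of any 1 mouse, of both libraries and 2 other scalings, the exact p of *Cd3e* ranged from 0.0079 to 0.0286.

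*Cd3d*, the delta chain gene, had 3, 0, 6, 1 and 1 reads in young and 4, 4, 21, 4 and 2 reads in old mice. The groups overlapped, and 21 of the 35 old reads came from old replicate 3. The mean was 2.21 ± 2.39 in the young group and 6.75 ± 7.23 normalized counts in the old group (exact permutation p = 0.175). Without old replicate 3 the old mean was 3.54 (exact p = 0.349), whereas without young replicate 3 the exact p was 0.0317. Summed over all 3 chains, the CD3 level was 1.02 to 17.9 normalized counts in young and 23.0 to 86.7 in old mice, without overlap, a separation that *Cd3g* and *Cd3e* also showed singly and *Cd3d* did not.

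*Cd247* encodes the zeta chain, which bears the largest number of signaling motifs in the receptor complex, and it lies on chromosome 1 (165788681 to 165877277, plus strand). It had 24, 10, 9, 10 and 3 reads in young and 13, 11, 28, 12 and 9 reads in old mice. The groups overlapped widely, with 1 high mouse in each: young replicate 1 and old replicate 3. The log2 fold change was 0.36 with an SE of 0.45 (edgeR adjusted p = 0.668), and the estimate moved between 0.013 without old replicate 3 and 0.85 without young replicate 1 (adjusted p 0.991 and 0.192). Of the exonic length of *Cd247*, 60.3% is overlapped by *Pou2f1* on the opposite strand and *Gm16565* on the same strand. *Pou2f1*, a widely expressed transcription factor gene, had 661 ± 43.7 normalized counts in the young group and 623 ± 68.5 in the old group (log2 fold change -0.08, SE 0.08, edgeR adjusted p = 0.599). The labels describe the libraries as stranded, but the strand setting of the counting was not given in the sources used here, so that the share of the *Cd247* reads that came from the more abundant neighbor was not measured.

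*Trbc2* encodes a constant region of the receptor beta chain and lies on chromosome 6 (41546730 to 41548352, plus strand), 8512 bp downstream of the start of its near-identical copy *Trbc1*. Of its 50-base windows, 44.0% also occur in *Trbc1*, and reads from those windows cannot be placed in one gene or the other. Their coding sequences of 521 bases are 95.6% identical, with 23 differing bases. The first difference is at base 260, and the other 22 fall in the last 141 bases, which are printed here from GENCODE M21 (GRCm38) because they hold nearly all the bases by which a read within the coding sequence can tell the copies apart. Capitals mark the bases that differ.
Trbc1: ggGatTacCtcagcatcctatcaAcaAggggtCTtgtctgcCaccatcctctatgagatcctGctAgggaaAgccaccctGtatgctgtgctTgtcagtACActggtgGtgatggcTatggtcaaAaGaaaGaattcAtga
Trbc2: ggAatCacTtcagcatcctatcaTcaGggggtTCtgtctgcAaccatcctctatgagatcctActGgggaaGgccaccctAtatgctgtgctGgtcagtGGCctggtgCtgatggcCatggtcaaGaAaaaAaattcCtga
*Trbc2* had 7, 0, 7, 1 and 2 reads in young and 6, 13, 27, 8 and 7 reads in old mice. Old replicates 1 and 5 lay below young replicates 1 and 3, so that the groups overlapped. The mean was 3.43 ± 3.40 in the young group and 12.0 ± 8.05 normalized counts in the old group, a difference that did not pass the exact permutation test (p = 0.0556). Over omitted mice and other scalings this p ranged from 0.0476 to 0.111, with the lowest value without young replicate 1, young replicate 3 or old replicate 1 and, with all 10 mice kept, under scaling by the library total. *Trbc1* had 2, 0, 3, 1 and 2 reads in young and 3, 12, 16, 7 and 4 reads in old mice, where the highest young and the lowest old mouse both had 3 reads and only the scaling set them apart (1.61 ± 1.15 and 8.32 ± 5.40 normalized counts, exact permutation p = 0.0079, the smallest p possible). The sum of both copies, which was added after the values were seen and does not depend on how shared reads were split between them, was 5.04 ± 4.40 in the young group and 20.3 ± 13.2 normalized counts in the old group (exact permutation p = 0.0238). In this sum 1 old mouse, replicate 1, remained within the young range.

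Of the coreceptor genes, *Cd4* had enough reads for the edgeR test and *Cd8a* had not. *Cd4*, the coreceptor of helper T cells that is also expressed by some myeloid cells, lies on chromosome 6 (124864692 to 124888221, minus strand). It had 13, 6, 6, 10 and 6 reads in young and 15, 34, 48, 31 and 34 reads in old mice. The groups did not overlap, with young replicate 1 and old replicate 1 nearly level. The mean was 8.22 ± 3.23 in the young group and 31.9 ± 11.0 normalized counts in the old group, and the log2 fold change was 1.95 with an SE of 0.34 (edgeR adjusted p = 0.00269). In this fit *Cd4* was the only one of the 10 genes called at an adjusted p below 0.01, and over 19 alternatives its log2 fold change lay between 1.79 and 2.18. Of the myeloid cells that can express *Cd4*, the sum of 8 macrophage markers was 6832 to 9196 normalized counts in young and 9048 to 18580 in old mice. Of the 8, edgeR called 4 as higher beside 6.48% of all tested genes, DESeq2 7 beside 7.24%, and limma-voom 5 beside 6.53%. The edgeR count was 5 without young replicate 1. It was 2 without the low-count filter or without young replicate 2, young replicate 4 or young replicate 5. Of 6 dendritic cell markers, *Zbtb46* carried most of the sum (388 to 603 normalized counts in young and 467 to 596 in old mice) and is also expressed in endothelium. *Cd209a*, named with *Zbtb46* after their values were seen, had 12 to 36 reads in young and 70 to 116 in old mice, the other 4 had at most 56 reads in any library, and the part of either cell type in the *Cd4* counts was not tested.

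*Cd8a*, the coreceptor of cytotoxic T cells, lies on the same chromosome (71373427 to 71379173, plus strand) and had 14, 2, 2, 1 and 1 reads in young and 0, 8, 15, 6 and 4 reads in old mice. Young replicate 1 stood with the highest old mouse, and old replicate 1 had no read, which allows up to 3 reads by counting error. The mean was 4.06 ± 5.75 in the young group and 6.47 ± 5.25 normalized counts in the old group (exact permutation p = 0.476). Without young replicate 1 the young mean was 1.499, and the difference still did not pass the test (exact permutation p = 0.0952). Without old replicate 3 the old mean was 4.598, near the young mean (exact permutation p = 0.857). Without both libraries that stood apart the exact permutation p was 0.171. *Cd8b1*, which encodes the partner chain of CD8, had 5 reads in young and 26 in old mice (exact permutation p = 0.0794). The ratio of *Cd8a* to *Cd4* per exonic length (FPKM) was 0.111 to 1.19 in young and 0 to 0.346 in old mice, with overlap, and whether the change of *Cd4* differed from that of *Cd8a* was not tested.

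*Lck*, the kinase that phosphorylates the CD3 and zeta chains, lies on chromosome 4 (129548344 to 129573641, minus strand). It had 25, 3, 8, 7 and 6 reads in young and 6, 19, 35, 15 and 19 reads in old mice. Old replicate 1 lay within the young range, and young replicate 1 lay within the old range. The mean was 9.89 ± 8.95 in the young group and 18.5 ± 9.71 normalized counts in the old group, and the log2 fold change of 0.91, with an SE of 0.53, did not pass the test (edgeR adjusted p = 0.298). This call depended on young replicate 1. Without it the log2 fold change was 1.61 and passed (adjusted p = 0.0330), and over all alternatives the adjusted p ranged from 0.0330 to 0.549, the highest value without old replicate 3.

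The cytotoxic granule genes were at the edge of detection. *Gzmk*, which encodes granzyme K (chromosome 13, 113171608 to 113225908, minus strand), had 1 read in all young libraries and 3 reads in all old libraries together. At this depth no difference was detectable, and no fold change is given. *Nkg7* (chromosome 7, 43437073 to 43438249, plus strand) had 1, 0, 5, 0 and 0 reads in young and 2, 2, 12, 3 and 3 reads in old mice. Apart from young replicate 3, every young library had at most 1 read and every old library at least 2. The mean was 1.20 ± 2.16 in the young group and 4.23 ± 3.91 normalized counts in the old group (exact permutation p = 0.159), and without young replicate 3 the exact p was 0.0159, the smallest that 4 against 5 mice can give. Without old replicate 3 the old mean was 2.497 (exact permutation p = 0.3175). Without both libraries that stood apart the exact permutation p was 0.4. The summed reads, 22 in old against 6 in young aortae, gave a ratio of 3.70 with a counting interval of 1.46 to 11.2.

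**Figure D2:**
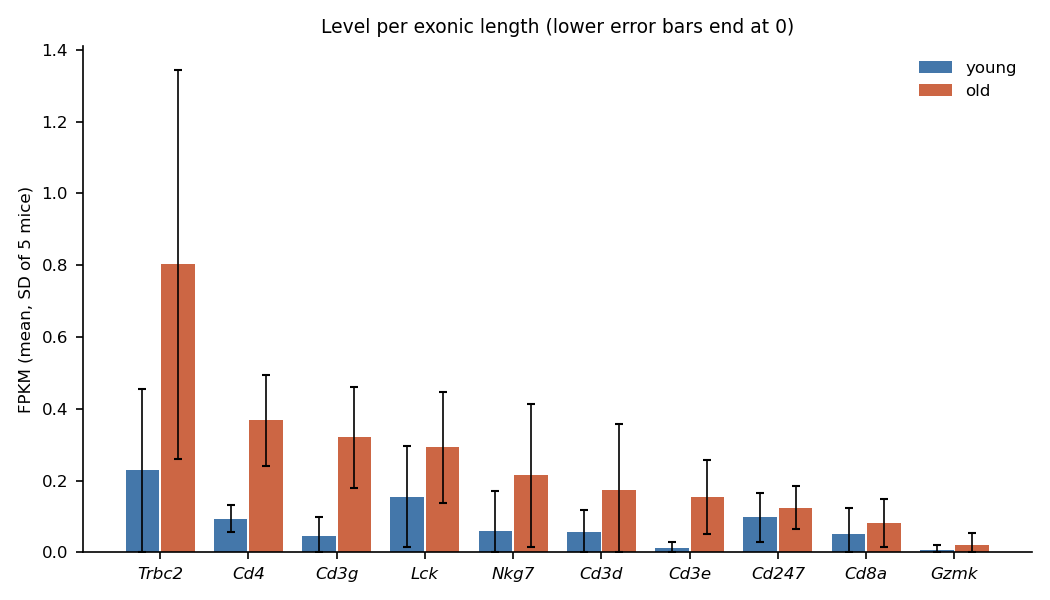
Level per exonic length (vertical axis, FPKM, on a linear scale from 0) of the 10 genes in young (blue) and old (orange) aortae, in the order of their old means, with bars for the mean and error bars for the SD of 5 mice. *Trbc2* had the highest mean in old aortae (0.803 FPKM) and *Gzmk* the lowest (0.0213 FPKM), and all 10 means were below 1 FPKM.

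Levels of different genes were compared only per exonic length, as FPKM, the count scaled by exonic length and by the library size after TMM normalization. In old aortae *Trbc2* was at 0.803 ± 0.541 FPKM, followed by *Cd4* (0.368 ± 0.127), *Cd3g* (0.320 ± 0.140) and *Lck* (0.292 ± 0.154). *Nkg7*, *Cd3d* and *Cd3e* followed at 0.215 ± 0.199, 0.173 ± 0.185 and 0.154 ± 0.103 FPKM, then *Cd247* at 0.124 ± 0.0593, *Cd8a* at 0.0827 ± 0.0672 and *Gzmk* at 0.0213 ± 0.0323. Each neighbor in this order differed from the next by less than both SDs, with the exception of the step from *Trbc2* to *Cd4*, which exceeded the SD of *Cd4* but not that of *Trbc2*, and the step from *Cd8a* to *Gzmk*, which exceeded the SD of *Gzmk* but not that of *Cd8a*. In young aortae the level of *Cd4* was 0.0941 ± 0.0369 FPKM, that of *Cd3g* 0.0453 ± 0.0544 and that of *Cd3e* 0.0135 ± 0.0148.

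The T cell genes were set against the level of pan-leukocyte markers. The sum of 6 pan-leukocyte markers was 848 to 1331 normalized counts in young and 1354 to 3179 in old mice, without overlap. Of the 6 markers, 3 were called, all as higher, beside 6.48% of all tested genes, but 5 were called with DESeq2, 0 without the low-count filter and 0 without young replicate 2, young replicate 4 or young replicate 5. This sum does not include the T cell genes, and their level is given as a ratio to it. The ratio of the 3 CD3 chains was 0.121% to 1.35% in young mice and 1.70% to 2.73% in old mice, again without overlap. For all 10 genes together the ratio was 2.30% to 7.84% in young mice, with a median of 3.37%, and 4.87% to 7.72% in old mice, with a median of 7.44%. These ranges overlapped, and young replicate 1, with its many *Lck*, *Cd247* and *Cd8a* reads, had the highest ratio of all mice. Beside these values, the B cell marker sum overlapped between the groups (17.1 to 134 in young and 46.0 to 507 in old mice). Of its 4 tested genes, 0 were called by edgeR, DESeq2 or limma-voom, although 1 had an unadjusted p below 0.05 in edgeR. Their median log2 fold change in edgeR was 1.496, beside 1.43 for the 4 tested T cell genes. Without young replicate 1 the median of the B cell genes was 2.056, and 3 had an unadjusted p below 0.05. Without old replicate 3 their median was 0.3993, and 0 had such a p. Whether the B cell genes changed differently from the T cell genes was not tested. Of the immature thymocyte markers, *Rag2* was at 0 in every library, *Rag1*, *Dntt* and *Ptcra* had 0 to 2 reads per library, and only *Cd1d1*, which other cells also express, had more (56 to 220 reads in young and 48 to 75 in old mice). The sum of red blood cell markers was 718.5 to 4560 over both groups, with overlap.

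**Figure D3:**
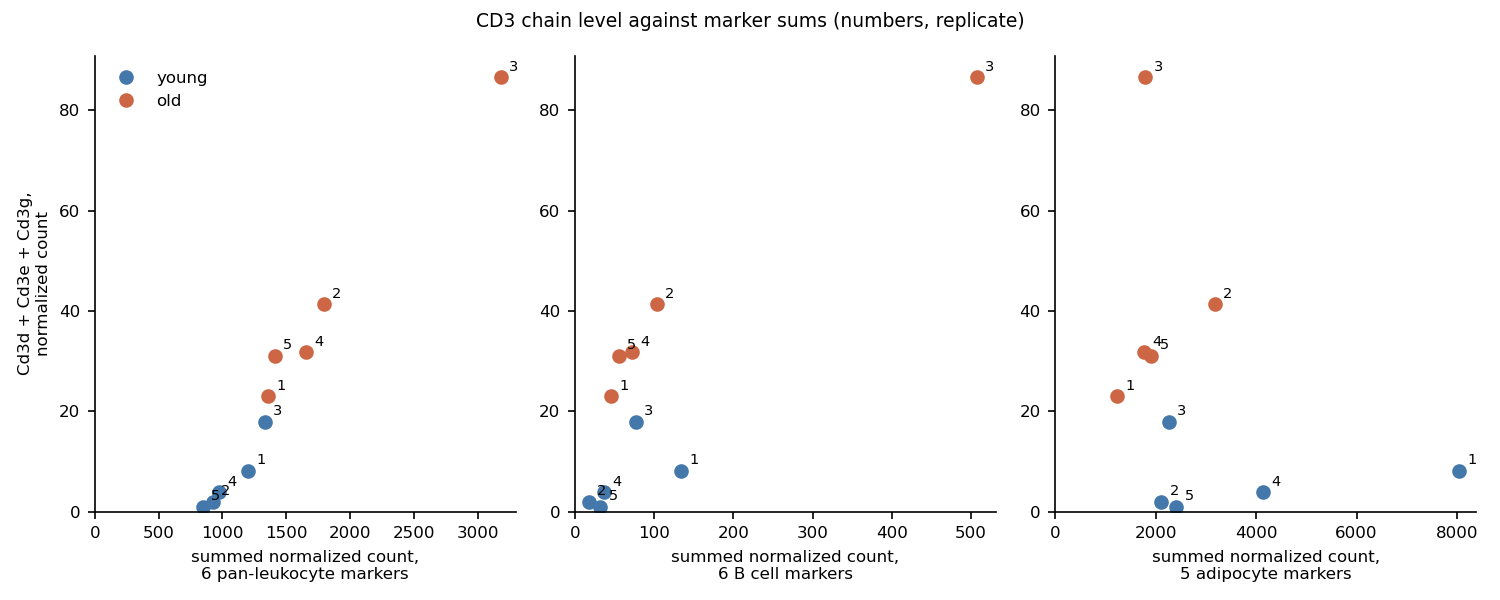
Summed normalized count of *Cd3d*, *Cd3e* and *Cd3g* (vertical axis) in each mouse against the summed normalized count of pan-leukocyte, B cell and adipocyte markers (horizontal axes), with young mice in blue, old mice in orange and replicate numbers beside the points. All old mice lie above all young mice on the vertical axis (23.0 to 86.7 against 1.02 to 17.9), old replicate 3 lies far to the right in B cell markers, and young replicate 1 far to the right in adipocyte markers.

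Other genes of the T cell system were taken from 5 lists drawn up by textbook role, with 77 genes in all. Of these, 28 were tested and 7 called, 6 as higher and 1 as lower, beside 6.48% called as higher and 4.99% as lower over all tested genes. Some of the 28 passed the filter only through the old libraries, and nothing is read from this share. With DESeq2, 14 of 51 tested list genes were called, beside 13.6% of all its tested genes. The edgeR count of calls moved with single mice, to 12 without young replicate 1, 4 without young replicate 2, and 3 without young replicate 4, young replicate 5 or old replicate 3. *Trdc*, the constant gene of the receptor delta chain, had the largest fold change of the 28 tested genes. It had 1, 1, 0, 0 and 2 reads in young and 12, 13, 58, 16 and 15 reads in old mice, without overlap, and its log2 fold change was 4.60 with an SE of 0.73 (edgeR adjusted p = 0.00158). Like *Cd3g* it was tested through its old libraries alone, and 118 reads in all carry this value. Without old replicate 3, which had 58 of these reads, the log2 fold change was 3.94 (edgeR adjusted p = 0.000852). *Trdc* was the only tested gene among 7 receptor and coreceptor chains. Under the filter, *Tcrg-C1*, a gamma constant gene, had 19 reads in young and 75 in old mice (exact permutation p = 0.0238), and *Trac*, the alpha constant gene, had 25 and 57 (exact permutation p = 0.246).

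**Figure D4:**
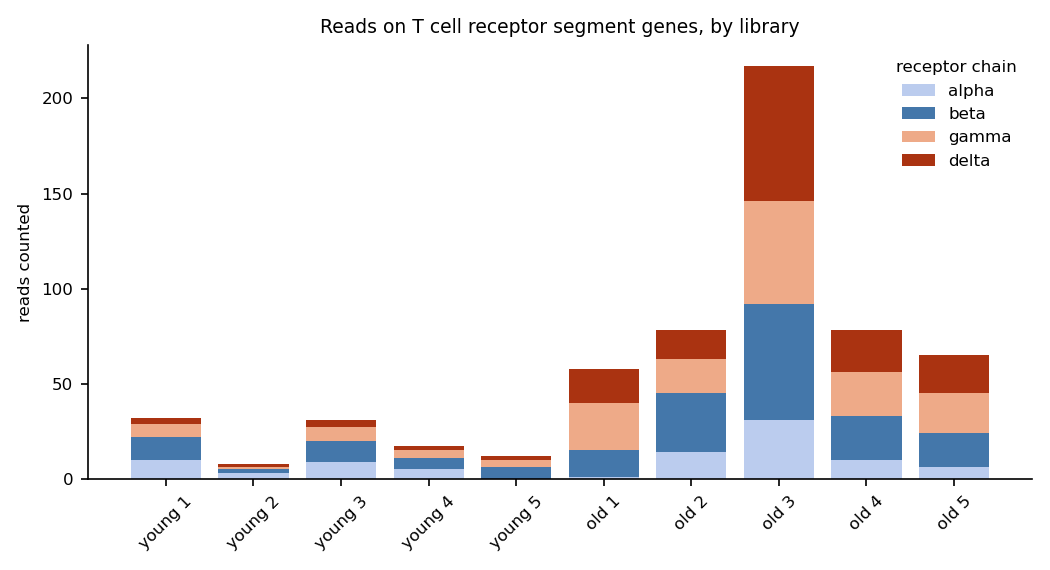
Reads counted on T cell receptor segment genes (vertical axis, not normalized) in each library (horizontal axis), stacked by receptor chain. Old libraries held 58 to 217 such reads and young libraries 8 to 32, and the delta chain had 2 to 4 reads in each young and 15 to 71 in each old library.

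Of 20 receptor signaling genes, 10 were tested and 4 were called, all as higher, beside 6.48% of all tested genes: *Lat* (log2 fold change 1.61, SE 0.40, edgeR adjusted p = 0.0205), *Grap2* (1.78, SE 0.46, adjusted p = 0.0236), *Vav1* (1.11, SE 0.25, adjusted p = 0.0124) and *Lcp2* (0.94, SE 0.24, adjusted p = 0.0217). *Lat* encodes the scaffold on which the signal of Lck and ZAP-70 converges, *Lcp2* and *Grap2* encode adaptors that bind it, and *Vav1* encodes an exchange factor that is shared by other blood cells. *Lat* and *Grap2* were named after their values were seen. They reached the required count in all old libraries but in few young ones, and nothing is read from the share of called genes. In *Lat* old mice had 14.6 to 28.0 and young mice 1.01 to 12.3 normalized counts, without overlap. *Lat* lost its call without young replicate 4, young replicate 5 or old replicate 3 (adjusted p 0.0514 to 0.0556), and *Lcp2* and *Grap2* lost theirs without any 1 of these mice or young replicate 2 (0.0503 to 0.0619). *Plcg1* and *Fyn*, which are expressed in many cell types, had the highest counts of this list and did not pass the test (log2 fold changes 0.12, SE 0.09, and -0.13, SE 0.09, adjusted p = 0.401 and 0.412).

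**Figure D5:**
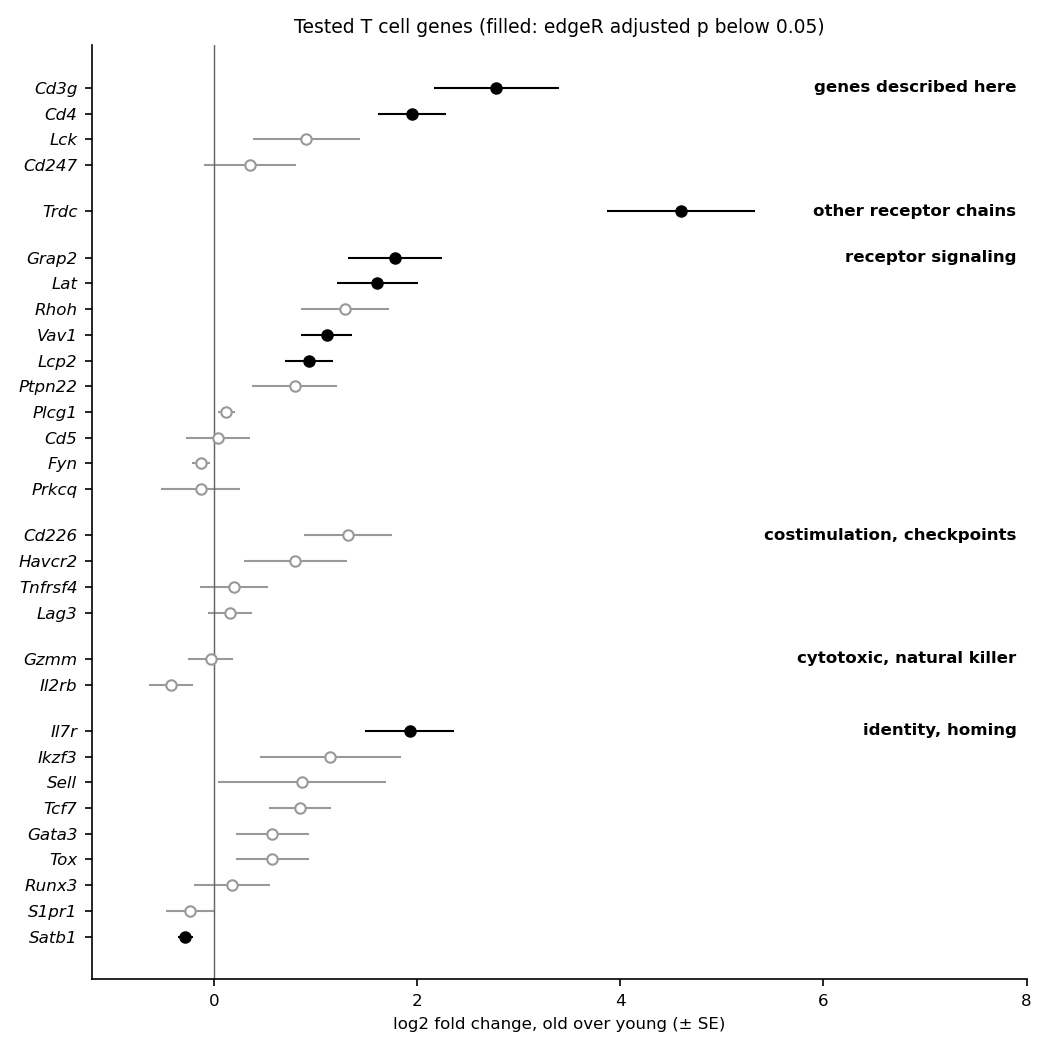
Log2 fold change of old over young aortae (horizontal axis) with its SE for the 4 tested genes of the 10 described here and for tested genes of the other T cell lists, grouped by list and ordered by size. Filled points passed an edgeR adjusted p below 0.05, from *Trdc* at 4.60 to *Satb1* at -0.28, and open points did not.

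No gene of the costimulatory and checkpoint list or of the cytotoxic and natural killer list was called by edgeR. In the costimulatory list 4 of 14 genes were tested, 1 of them with an unadjusted p below 0.05, and DESeq2 called 0 and limma-voom 1, *Cd226*. *Cd226*, an activating receptor of T and natural killer cells, had a log2 fold change of 1.32 (SE 0.43, edgeR adjusted p = 0.0658, range 0.0227 to 0.147 over its alternatives, the lowest without young replicate 1), and *Lag3*, an inhibitory receptor, had 0.16 (SE 0.22, adjusted p = 0.703). *Tnfrsf4* and *Havcr2* did not pass either (log2 fold changes 0.20 and 0.80, SE 0.34 and 0.51), although *Havcr2* passed without young replicate 3 (adjusted p = 0.0290, highest value 0.650), and *Tigit* had no read in any library. In the cytotoxic list 2 of 19 genes were tested, with 0 at an unadjusted p below 0.05 and 0 calls by DESeq2 or limma-voom. *Gzmm*, a granzyme of natural killer and innate-like T cells, was at 47.9 ± 4.65 normalized counts in the young group and 46.7 ± 15.2 in the old group, and *Il2rb*, a receptor chain for interleukins 2 and 15, was at 37.3 ± 5.47 and 27.7 ± 7.46 (edgeR adjusted p = 0.945 and 0.240). *Ccl5*, a chemokine of effector T cells, had 31 reads in young and 85 in old mice, and *Ctsw*, a protease of cytotoxic cells, had 14 and 33 (exact permutation p = 0.103 and 0.0317).

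Among 17 transcription factors and homing receptors, 11 were tested. *Il7r*, the interleukin 7 receptor of resting T cells and innate lymphoid cells, was called as higher, with 2.90 to 9.97 normalized counts in young and 9.72 to 38.2 in old mice (log2 fold change 1.93, SE 0.44, edgeR adjusted p = 0.0129). It was named after its values were seen, and old replicate 5 overlapped with the highest young mouse. *Satb1*, a chromatin organizer of thymocytes that other tissues also express, was called as lower (343 ± 18.9 in the young group and 281 ± 22.4 normalized counts in the old group, log2 fold change -0.28, SE 0.08, edgeR adjusted p = 0.0317), a call that was lost in 11 of 19 alternatives (adjusted p up to 0.0806), among them the omission of young replicate 2, 4 or 5 or of old replicate 1, 2, 3 or 4. *S1pr1*, a lymphocyte egress receptor that endothelial cells express strongly, and *Gata3* did not pass (log2 fold changes -0.24 and 0.58, SE 0.23 and 0.36). *S1pr1* passed as lower without old replicate 2 (adjusted p = 0.0132, highest value 0.856), and the sum of 5 endothelial markers was 17940 to 31460 normalized counts in young and 8955 to 20830 in old mice, whose part in *S1pr1* was not tested. The list holds factors of many lineages, and the 2 called genes moved in opposite directions.

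Within the groups, the tested genes whose level moved most like the mean of the 4 tested T cell genes were found by Pearson's r over all 10 mice, after the mean of each age group had been removed. Among the 10 highest values were those of *Wnt11* (0.978), *Clec4a2* (0.964), *Serpina3c* (0.962), *Nmnat3* (0.961), *Cmbl* (0.959), *Faah* (0.943), *Cyth4* (0.943), *Cirbp* (0.943) and *Enpp2* (0.940). The T cell mean itself was highest in young replicate 1 and old replicate 3 (1.02 and 0.78 log2 units above their group means), the libraries that stood apart, and their part in the r values was not tested. They are among the highest of 14614 genes in 10 mice and are given as a description.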

How the data were processed

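The authors filtered reads with fastp (0.20.0), aligned them with STAR (2.7.0f) to the mouse genome GRCm38 and counted them per gene with featureCounts of Subread (1.6.4), per the paper's methods and the submitters' processing notes; the strand setting and the handling of reads with several alignments were not given in the sources used here. The deposited values are raw counts, whole numbers per gene symbol and library without normalization. Positions, exonic lengths and shared 50-base windows came from GENCODE M21, whereas the authors used release 22 on the same build; upstream sequences came from RefSeq.

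The 10 genes and all lists were chosen with earlier results of these data known. Groups were taken from the sample labels, 5 young and 5 old mice. Genes that passed filterByExpr were tested with edgeR (4.0.16, R 4.3.3) by the quasi-likelihood F test (robust fit, TMM, no covariate) on the whole table, with calls at a Benjamini-Hochberg adjusted p below 0.05. Log2 fold changes are old over young. Normalized counts are counts divided by DESeq2 (1.42.0) size factors, and FPKM was computed here from the counts. Genes under the filter were compared by exact two-sided permutation tests (scipy 1.17.1), with unadjusted p. Intervals of ratios and shares are exact 95% intervals for counting error only. The text names all 10 genes, the 4 most abundant genes of each other T cell list, *Trbc1*, overlapping neighbors and the 10 genes most alike in level; other names were chosen after their values were seen, and 2 genes that the rule gives are not reported here.

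Alternatives were DESeq2, limma-voom (limma 3.58.1), 3 other scalings, no filter, a mean count of at least 10, a threshold of 0.01, the replicate number as a block and the omission of each mouse. The omission of both libraries that stood apart was added after the data were seen. Replicate numbers were not taken as pairs in the main fit, and whether they pair the mice was not settled. The edgeR, DESeq2 and limma-voom tests were also run on simulated counts in which only genes that passed the filter were changed. This run did not cover changes in genes under the filter or the exact permutation test. Total counts of 19640401 to 22886153 per library leave genes with few reads imprecise.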

Additional observations from a re-analysis of the deposited data

Results flagged for a closer look

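In 18 combinations of gene and age group, the highest or lowest of 5 mice was compared with the rest by Dixon's criterion (critical value 0.71). Chance marks about 1 in 20 groups of normally distributed values by it. Counts of few reads are not so distributed, and the rate for them was not measured. A mouse stood apart in 6 of them. Old replicate 3 stood above the other old mice in *Cd3d* (19.6 normalized counts, next 4.36), in *Cd247* (26.1, next 13.0) and in *Nkg7* (11.2, next 2.92). Young replicate 1 stood above the other young mice in *Cd8a* (14.3, next 2.01) and in *Lck* (25.6, next 7.98), and young replicate 3 did so in *Nkg7* (4.99, next 1.02). Old replicate 3 and young replicate 1 also held the highest B cell and adipocyte marker sums, and the part of those cells in these values was not tested.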

How the results depend on the processing

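Of the 10 genes, 2 of 4 tested were called in the fit reported above, 3 of 9 with DESeq2 and 3 of 10 without the filter. At an adjusted p below 0.01 1 was called, and 2 to 3 over the omission of 1 mouse at a time. Without both libraries that stood apart, 2 genes remained tested, *Cd3g* and *Cd4*, and both were called. In the fit reported above these genes passed the low-count filter mostly through old libraries, so that nothing is read from this count. Of the other T cell genes, 7 of 28 tested were called, 14 of 51 with DESeq2 and 11 of 76 without the filter. Over all tested genes the shares called were 11.5%, 13.6% and 5.72%. At the stricter threshold 1 was called, and 3 to 12 over omitted mice (12 without young replicate 1, 4 without young replicate 2, and 3 without young replicate 4, young replicate 5 or old replicate 3). Over the whole table the count of 1676 became 658 at the stricter threshold and 1132 to 2367 over omitted mice. With the replicate number as a block, 2 of the 10 genes, 8 of the other T cell genes and 1261 genes of the table were called. Deviations of same-numbered mice correlated at -0.30 to 0.13, and 2 of 5 numbers correlated best with their own. So few values cannot decide whether mice of the same number shared a batch. Of 453 refitted log2 fold changes of 24 genes, 408 kept direction and call, 29 lost and 11 gained the call, and 5 turned direction, none of them called: *Gzmm* to 0.020 without young replicate 3, 0.078 without old replicate 3, 0.055 without old replicate 5 (its lowest value over omitted mice was -0.21) and 0.034 without both libraries, and *Pou2f1* to 0.00082 without both. Of 78 refitted differences of the 6 genes under the filter, 72 kept their side of the threshold and 6 passed it. With 4 to 78 reads per gene, the depth limits what can be said of *Cd3d*, *Cd8a*, *Trbc2*, *Gzmk* and *Nkg7*, and an absent call there does not show an equal level.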

Other observations

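The reads of T cell receptor segment genes were added up by chain. This count was chosen after the values were seen and is given without a test. Of 270 segment symbols, 45 had a read. The variable segment *B230359F08Rik*, with 1 read in young replicate 3 and 1 in young replicate 4, was not placed in a chain. It was left out of the sums and shares. Alpha chain reads numbered 27 in young and 62 in old aortae, with overlap between mice, and beta chain reads numbered 37 and 147. Gamma chain reads numbered 23 and 141, and delta chain reads 13 and 146, with every old mouse above every young mouse in the beta, gamma and delta sums. Gamma and delta reads together were 36.0% of chain reads in young aortae (exact 95% interval 26.6% to 46.2%) and 57.9% in old aortae (53.4% to 62.3%), intervals that cover counting error only. Without young replicate 1 the young share was 38.2%, and without old replicate 3 the old share was 58.1%. By mouse the share was 31.3% to 50% in young and 42.3% to 74.1% in old aortae, so that the groups overlapped. These are shares of reads, not of cells: the exonic length of *Trdc* is 3865 bases and that of *Trac* 935 bases, and unrearranged gene copies can also be transcribed.

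Single segments varied. *Tcrg-C2*, a gamma constant gene, had 1 read in young and 32 in old aortae, *Tcrg-C4* had 2 and 15, and the delta variable segment *Trdv4* had 7 and 29. The gamma variable segment *Tcrg-V6* had 0 and 6 reads, which came from 4 old mice. Of the beta variable segments, *Trbv13-2* had 4 and 11 reads, *Trbv12-1* 0 and 6, *Trbv12-2* 1 and 6, and *Trbv13-3* 0 and 4. The gamma variable segment *Trgv2* had 0 and 4 reads. Some segments had no more than 3 reads in either group, such as *Trdv5* with 2 and 3 reads, *Trbv6* with 2 and 1 and *Trbj2-3* with 2 and 0. *Cd163l1*, a scavenger receptor gene of the family expressed by gamma-delta T cells, was at 9.61 ± 10.7 normalized counts in young mice and at 47.2 ± 24.6 in old mice (log2 fold change 2.29, SE 0.59, edgeR adjusted p = 0.0289), with overlap, and it lost the call in 7 of 19 alternatives (adjusted p up to 0.0957), among them the omission of young replicate 2, 4 or 5 or of old replicate 3 or 4. All of these genes were chosen after their values were seen.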
